A study of Mus musculus with 74 samples.

Results

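The axon guidance ligands and receptors were the protein-coding genes of the semaphorin (Sema3 to Sema7), plexin, neuropilin, Eph, ephrin, Slit, Robo, netrin, Unc5 and Dcc families whose counts averaged 10 or more in the 8 whole dorsal root ganglion (DRG) libraries. Of 72 protein-coding genes with such a symbol 70 reached that mean, among 17616 genes that did, and they divide into 36 ligands and 34 receptors. Sema3a, at a mean count of 11.9, and Epha1, at 13.5, lay just inside, while Robo3 at 9.75 and Unc5cl at 3.62 lay outside. Unc50 was taken in by its symbol but is not a netrin receptor, and it is counted among the 34 only because the symbol rule holds it.

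Guidance cues steer growing axons by attraction and repulsion. Secreted and membrane-bound semaphorins act through plexins, with neuropilins as co-receptors for most of the secreted class; ephrins on one cell bind Eph receptor tyrosine kinases on the next and can signal in both directions; Slits act on Robo receptors; and netrins attract through Dcc and repel through Unc5 receptors. In the DRG, semaphorins and Slits shape how sensory axons grow and branch in development, and several of these genes stay on in adult neurons and in the glia around them.

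The samples were L4 DRGs of female mice, either as whole tissue or as yellow fluorescent neurons sorted by flow cytometry (FACS). Whole DRGs came from wild-type C57BL/6 mice of 10 to 12 weeks: 4 uninjured and 4 taken 1 day after a thoracic spinal cord injury (SCI) that cut the dorsal columns. Sorted neurons came from Thy1YFP16 mice of 10 to 20 weeks, in 6 naive mice and in 4 mice each 1 day and 3 days after SCI or after sciatic nerve injury (SNI, a crush). The transgene's Thy1 promoter marks mainly large-diameter neurons with ascending axons, so small neurons were not the target. About 100 cells went into each well and the 3 wells of a mouse are technical replicates, which were summed. The labels place the sorted mice in a set called FACS and a set called FACS2018, with 2 mice of every injured group in each and 4 and 2 naive mice. Naive replicates 1, 2 and 5 carry a label of day 1 and replicates 3, 4 and 6 one of day 3. The 6 were pooled as controls for both days, and a fit that set each injured group against the 3 naive mice of its own day was added after seeing the data.

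Gene reads ranged from 21959030 to 44493319 per whole DRG and from 30518187 to 83599972 per sorted mouse. Levels are given as CPM, the read count scaled to the total gene reads of its mouse, and genes are compared with each other only as RPKM, CPM per kilobase of the merged exons. Of the 6 large-fibre markers checked against the label, Pvalb, Runx3 and Etv1 had higher medians in naive neurons than in uninjured whole DRG, at 445, 25.5 and 133 CPM against 139, 4.02 and 55.8. Nefh, Ntrk3 and Ntrk2 had lower ones, at 1680.1, 153 and 20.3 CPM against 2925, 269 and 254, so that the 6 summed to 2422 against 3650.4. The 6 nociceptor markers summed to between 35.2 and 15902 CPM per naive mouse, above every uninjured whole DRG (3085 or less) in replicates 2 and 5, with Calca up to 11226 and Mrgprd at 0.231 CPM or less. Other cells were present too: in naive mice the fibroblast markers reached 8994 CPM (replicate 5), the macrophage markers 397 (replicate 6) and the red blood cell markers 1551 (replicate 1), with medians of 57, 1.04 and 3.27. In injured mice the fibroblast markers reached 45510.2 CPM and the macrophage markers 647 in SCI 3d replicate 3. The nociceptor markers reached 12397 CPM in SCI 1d replicate 4 and 9097 in SNI 1d replicate 4. The part of these cells in the differences after injury was not tested.

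Glial transcripts set a group of wells apart. In 20 of 66 wells, from 14 mice, 9 satellite glia and Schwann cell markers took over 2% of gene reads, with a median of 8.13% against 0.439% in the other 46 wells, while 4 neuronal markers had a median of 0.0154% against 2.30%. The neuronal shares overlapped, with up to 1.30% in the 20 wells and as little as 0.688% in the other 46. Replicate 3 of SNI 3d and replicate 3 of SCI 3d held no well outside these 20. In well b of SCI 3d replicate 3 the fibroblast markers took 5.73% of gene reads and the glial markers 3.62%. Naive replicates 5 and 6, of the FACS2018 set, had glial sums of 48860.0 and 76821 CPM, against 15360.0 or less in the other 4. In these bulk samples fewer cells of a type and less RNA per cell cannot be told apart. Whether the counting used the strand is not given in the sources used here, so reads of the 30 members that overlap a gene on the opposite strand are uncertain; among those named here these are Efna3, Efna4, Epha1, Epha10, Epha6, Epha7, Ephb4, Nrp2, Ntn1, Ntn4, Ntn5, Ntng1, Plxna1, Plxna4, Plxnb1, Robo2, Sema3a, Sema3e, Sema4c, Sema4d, Sema5a, Sema5b, Sema6d, Slit2, Slit3, Unc5a and Unc5c.

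Among the ligands in uninjured whole DRG, semaphorins lay highest by RPKM. Sema7a, a lipid-anchored semaphorin that binds plexin C1, had 37.1 ± 3.87 RPKM (SD, n = 4) and Sema3b, a secreted semaphorin, 36.4 ± 3.69, values that do not differ beyond their spread. Slit1 had 17.9 ± 2.05 RPKM and Slit2, a ligand of the same Robo receptors, 1.71 ± 0.167. Efna1, an ephrin held in the membrane by a lipid anchor, had 14.7 ± 1.6 RPKM and the transmembrane ephrin Efnb1 9.22 ± 1.6. The netrin-G genes Ntng2 and Ntng1, whose lipid-anchored products do not bind Dcc, had 6.97 ± 1.2 and 5.26 ± 0.123 RPKM, above the classical netrin Ntn1 at 2.17 ± 1.13.

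Among the receptors, Plxnc1, the receptor of Sema7a, was highest at 40.5 ± 2.06 RPKM (SD, n = 4), and the Sema3e receptor Plxnd1 had 14.6 ± 1.42. Ephb6, an Eph receptor without kinase activity, had 17.1 ± 1.51 RPKM and Epha6 6.4 ± 0.086. Robo2 had 12.6 ± 0.535 RPKM and Robo1 1.47 ± 0.142. The neuropilins Nrp1 and Nrp2 had 6.88 ± 0.876 and 6.72 ± 0.885 RPKM, which overlap. Unc5b, a netrin receptor, had 3.4 ± 0.28 RPKM, while Dcc, the attractive netrin receptor, was low at 0.0903 ± 0.0161. Unc50, which belongs to another protein family, had 34.5 ± 6.91 RPKM.

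**Figure D1:**
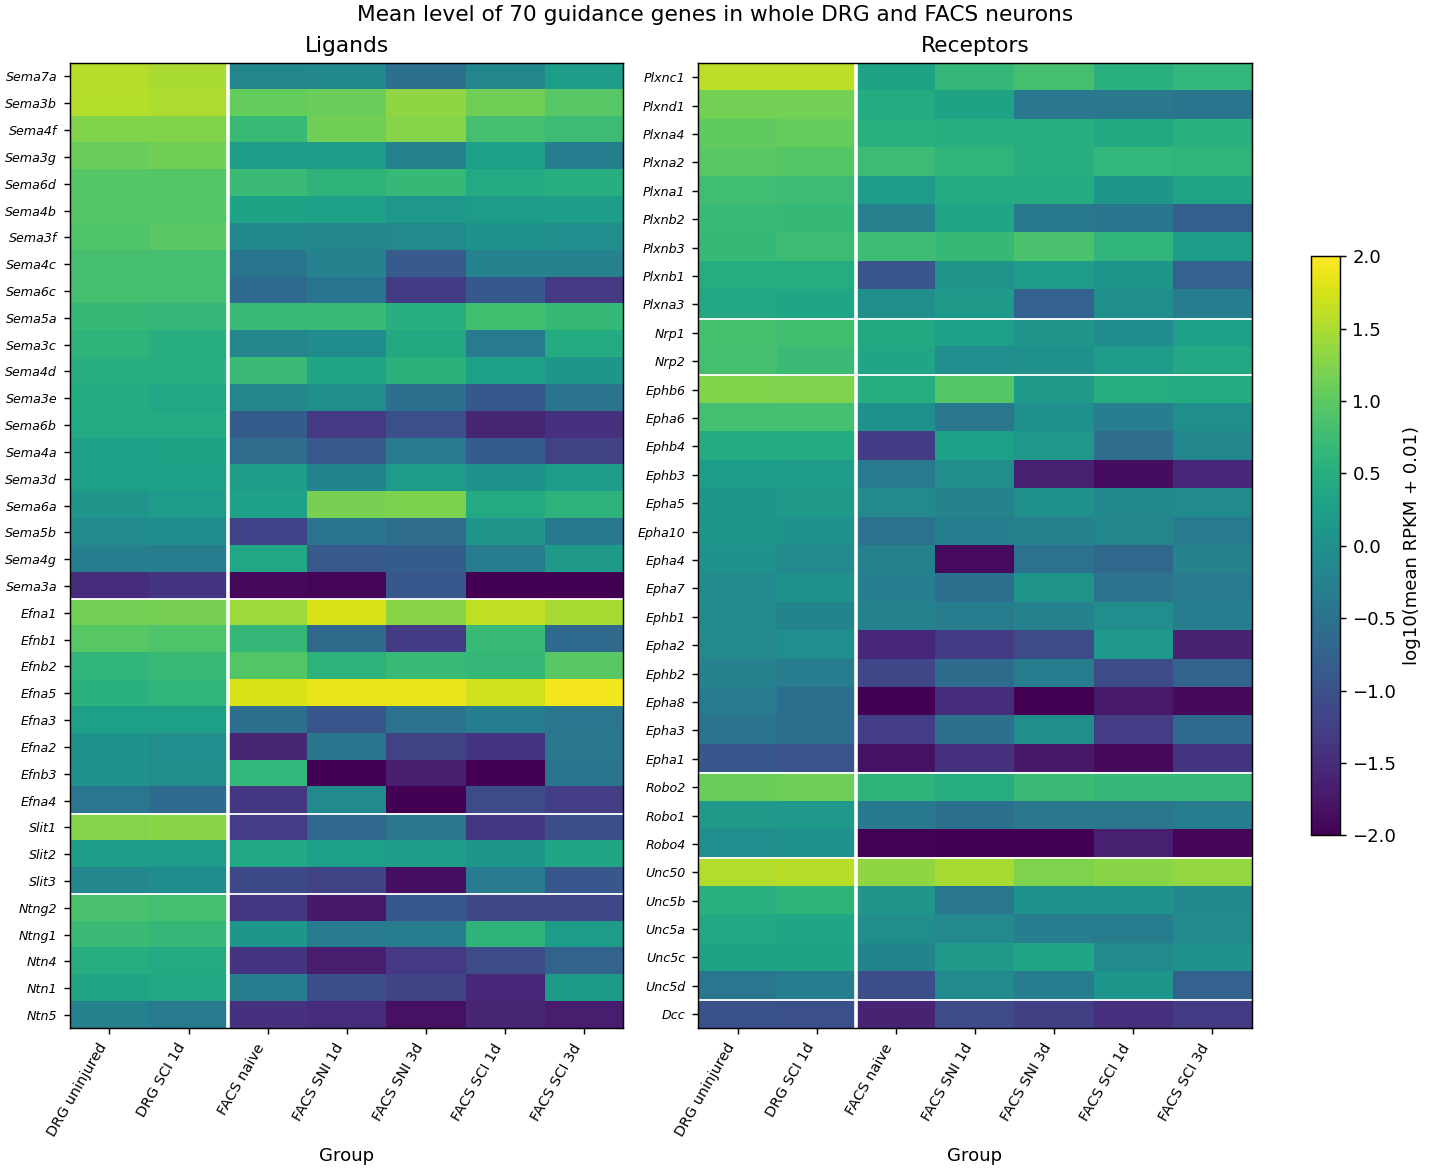
Mean RPKM of the 70 genes (rows, ordered within a family by uninjured whole DRG) in 7 groups (columns), coloured by log10(mean RPKM + 0.01), with ligands on the left and receptors on the right. Most genes have a lower mean in the naive neurons than in uninjured whole DRG, where the rule required reads of them. Efna5 has the largest mean of any gene in the naive column.

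In whole DRG 1 day after SCI, Epha7 rose and Epha4 and Sema3c fell. Of 70 members 3 were called by edgeR's quasi-likelihood test (Benjamini-Hochberg adjusted p under 0.1 over 17616 genes), 1 higher and 2 lower, which is 4.29% beside 2.32% of all genes tested (1.38% higher and 0.937% lower). DESeq2 called 6 members (8.57%, beside 5.27% of all genes), the same 3 and Epha8, Sema3e and Sema7a. By role, in edgeR, 1 of 36 ligands and 2 of 34 receptors were called. Of the members, 25 had a positive and 45 a negative log2 fold change, a positive share of 35.7% beside 53.1% of all genes, with a median of -0.05 beside 0.01.

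The called ligand was Sema3c, which encodes a secreted semaphorin (chromosome 5, 17574281 to 17730268, plus strand, GRCm38). It had 29.1, 29, 28.3 and 27.4 CPM in the 4 uninjured mice and 22.9, 24.6, 23.1 and 24.5 CPM after SCI. All 4 injured mice lay below all 4 uninjured mice, and the gene fell in edgeR (log2 fold change -0.28, SE 0.07, adjusted p = 0.0859). Epha4, a receptor for both ephrin classes (chromosome 1, 77367185 to 77515088, minus strand), had 8.88, 8.5, 8.3 and 7.81 CPM in uninjured mice and 6.09, 5.65, 6.65 and 5.78 CPM after SCI. The groups were again apart, and Epha4 fell (log2 fold change -0.48, SE 0.10, adjusted p = 0.0464). Epha7, an A-class Eph receptor (chromosome 4, 28813131 to 28967499, plus strand), had 7.92, 8.59, 8.65 and 8.51 CPM in uninjured mice and 11.1, 12.4, 11.6 and 9.81 CPM after SCI. Here the injured mice were all higher and the gene rose (log2 fold change 0.40, SE 0.09, adjusted p = 0.0745).

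These calls depended on single mice and on the filter on low counts. Leaving out uninjured replicate 2, 3 or 4 or SCI replicate 1 or 2 left 0 members called by edgeR, beside 0.592% to 0.958% of all genes. SCI replicate 4 left 1 (beside 1.76% of all genes), SCI replicate 3 gave 5 (beside 3.67% of all genes) and uninjured replicate 1 gave 3 (beside 2.72% of all genes). The large-fibre markers summed to 4724, 3632, 3669 and 3476 CPM in uninjured and 3519, 3530.1, 4929 and 3455 CPM in injured DRGs, highest in uninjured replicate 1 and SCI replicate 3. Without these 2 mice, a choice made after seeing the data, edgeR called 13 of 69 members (18.8%, beside 11.6% of all genes), the 3 above among them, with Epha7 the only one higher. Epha4 had an edgeR adjusted p of 0.148 without uninjured replicate 2, 0.136 without uninjured replicate 3, 0.106 without uninjured replicate 4, 0.138 without SCI 1d replicate 1, 0.141 without SCI 1d replicate 2 and 0.107 without SCI 1d replicate 4, and 0.0107 to 0.151 over all edgeR alternatives, with 0.00238 in DESeq2. For Epha7 it was 0.205 without uninjured replicate 2, 0.194 without uninjured replicate 3, 0.182 without uninjured replicate 4, 0.169 without SCI 1d replicate 1 and 0.204 without SCI 1d replicate 2, and 0.038 to 0.207 over all edgeR alternatives, with 0.00559 in DESeq2. For Sema3c it was 0.241 without uninjured replicate 2, 0.213 without uninjured replicate 3, 0.181 without uninjured replicate 4, 0.258 without SCI 1d replicate 1, 0.187 without SCI 1d replicate 2 and 0.122 without SCI 1d replicate 4, and 0.0249 to 0.26 over all edgeR alternatives, with 0.00871 in DESeq2. With no filter on low counts edgeR did not call Epha7 (adjusted p = 0.115) or Sema3c (adjusted p = 0.194). The sign was the same in all 8 fits with a mouse left out for the 3 genes. The 4 neuronal markers took 0.638, 0.750, 0.737 and 0.731% of gene reads in uninjured and 0.773, 0.793, 0.692 and 0.793% in injured DRGs. Glial markers summed to 7055, 7369, 7603 and 7189 CPM in uninjured and 5974, 7538, 7113 and 6073 CPM in injured DRGs. Macrophage markers summed to 48.2, 52.1, 45.9 and 37 CPM and 60.2, 55.1, 52.4 and 56.8 CPM, and red blood cell markers to 20.8, 20.2, 19.5 and 13.3 CPM and 61.2, 90.0, 70.6 and 20.6 CPM. The part of these cells in the 3 differences was not tested.

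**Figure D2:**
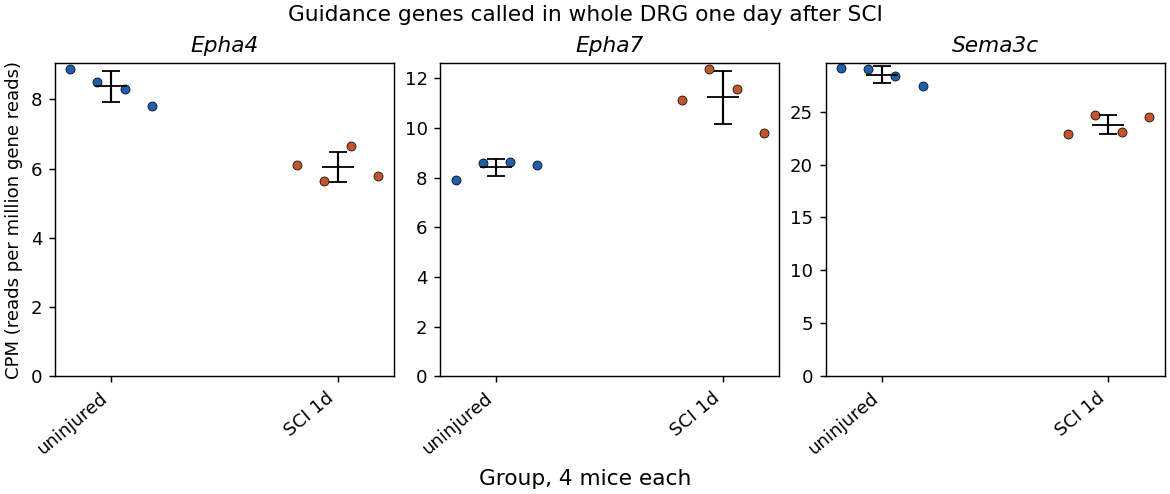
CPM (vertical axis, from 0) of Epha4, Epha7 and Sema3c in 4 uninjured and 4 SCI mice, with each mouse a point and the mean and SD as bars. In each panel the 2 groups do not overlap.

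The next genes by p did not pass the threshold in edgeR. Epha8 had 2.28, 1.86, 2.32 and 1.69 CPM in uninjured and 1.38, 0.942, 1.35 and 1.48 CPM in injured mice (log2 fold change -0.67, SE 0.19, adjusted p = 0.134 in edgeR). Those groups did not overlap either, at few reads per mouse. Unc5d, a netrin receptor that also binds Flrt proteins, had 3.32, 3.89, 3.06 and 3.02 CPM in uninjured and 3.57, 4.2, 5.29 and 4.26 CPM in injured mice (log2 fold change 0.37, SE 0.15, adjusted p = 0.281). Epha2 had 3.37, 3.69, 3.72 and 3.25 CPM and 3.63, 4.82, 4.9 and 3.85 CPM (log2 fold change 0.28, SE 0.13, adjusted p = 0.349). The groups overlapped for Unc5d and Epha2. In whole DRG 6 of 70 members had groups without overlap (8.57%, beside 10.6% of all genes tested) while 2.32% of all genes were called: the 3 called genes and Epha8, Sema3e and Sema7a, which were lower in every injured mouse and are named after their values were seen. DESeq2 called these 3 as well (adjusted p = 0.063, 0.084 and 0.0965).

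Most guidance genes, chosen for their whole DRG counts, had lower levels in naive sorted neurons than in uninjured whole DRG of other mice. Of the 67 members tested, 50 differed between naive neurons and uninjured whole DRG by the exact permutation test over 210 regroupings of 10 mice (two-sided, smallest possible p 0.00476, Benjamini-Hochberg adjusted p under 0.1 over 18205 genes), 1 higher and 49 lower. This is 74.6% of the members beside 50.4% of all genes. The shares are not like for like, because the members were chosen by their counts in whole DRG and the 18205 genes were not. The part of that choice in the excess of lower calls was not tested. The same limit applies below to the medians and to the shares with TMM scaling, without the glial wells and by overlap. For lower calls alone the background was 40.1% and for higher calls 10.3%. The median log2 difference was -2.24 for members and -0.73 for all genes, so that differences are to be read against that shift. TMM scaling moved it to -0.20 and the count of members called to 34 of 67 (50.7%), 1 higher and 33 lower. With that scaling 39.6% of all genes were called, 15.0% higher and 24.6% lower, and these are the shares to set beside the counts by family with TMM scaling below. It turned the sign of Sema6a, Sema4d, Sema5a and Unc50, none of them called. Calls lost with TMM scaling were Efnb1, Epha4, Ephb3, Ephb6, Nrp1, Nrp2, Ntn1, Ntng1, Plxna4, Plxnd1, Sema3b, Sema3e, Sema4b, Sema6d, Unc5a and Unc5c. Without the glial wells 51 members were called, beside 54.9% of all genes, and the sign turned for Efnb2, Sema4g and Slit2, none of them called with all wells. The groups did not overlap for 44 of 67 members (65.7%, beside 43.3% of all genes tested), 1 higher and 43 lower in neurons. Of all genes 8.2% lay apart as higher and 35.1% as lower. Efna4, Epha1 and Sema3a were below the count filter. Lower calls whose direction that filter set are named by family below. Library kit, strain, dissociation and cell type cannot be told apart here.

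Of 7 ephrins tested, 1 was called higher and 3 lower in neurons (1 and 2 with TMM scaling). Efna2 is counted among the 3 but reached the count filter only through whole DRG, which set its direction. Efna5, a lipid-anchored ephrin with a known role in repelling axons, had 13.3, 15.4, 15.3 and 14 CPM in the uninjured DRGs and from 69.9 to 623 CPM with a median of 174 in the naive neurons (log2 difference 3.53, adjusted p = 0.0192). Every naive mouse lay above every whole DRG. Efna2 ran at 2.78, 2.56, 2.03 and 2.27 CPM in tissue and from 0 to 0.147 CPM with a median of 0.0067 in neurons (log2 difference -1.71). Efna3 ran at 4.51, 4.5, 3.82 and 4.74 CPM in tissue and from 0 to 2.71 CPM with a median of 0.335 in neurons (log2 difference -1.86). Efnb1, a transmembrane ephrin, ran at 39.8, 29.8, 30.7 and 27.1 CPM in tissue and from 0.126 to 93.9 CPM with a median of 0.317 in neurons (log2 difference -3.60). Efna2 lay below the tissue range in all 6 naive mice and so did Efna3, and Efnb1 was low in 5 of 6 naive mice but high in replicate 5. Efnb2 had 34.3, 31.3, 27.5 and 23.9 CPM in the uninjured DRGs and from 6.83 to 126 CPM with a median of 57.7 in the naive neurons, and Efna1 22.9, 28.9, 26.7 and 29.2 CPM in the uninjured DRGs and from 3.71 to 118 CPM with a median of 35.5 in the naive neurons, both with overlapping groups (Efnb2 with a lower mean than whole DRG once the glial wells were left out) and adjusted p of 0.614 and 0.867 in the exact permutation test.

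All 5 netrins and 2 of 3 Slits were called lower in neurons (3 and 2 with TMM scaling). Among the netrins Ntn4, Ntn5 and Ntng2 reached the count filter only through whole DRG, which set their direction. Slit1, a secreted repellent that can also promote sensory axon branching, had 120.5, 110.4, 99.1 and 93.2 CPM in the uninjured DRGs and from 0 to 0.616 CPM with a median of 0.248 in the naive neurons (log2 difference -6.43, adjusted p = 0.0192). Every naive mouse lay below every whole DRG. Slit3 ran at 4.96, 4.38, 3.64 and 3.85 CPM in tissue and from 0 to 1.23 CPM with a median of 0.0826 in neurons (log2 difference -1.98). Slit2 had 47.3, 39, 46.8 and 40.6 CPM in the uninjured DRGs and from 19 to 119 CPM with a median of 74.5 in the naive neurons and an adjusted p of 0.757 in the exact permutation test. Of the 3 Slits, Slit2 was thus the gene whose groups overlapped. Ntng2 ran at 34.3, 28.4, 23.6 and 24.9 CPM in tissue and from 0 to 0.457 CPM with a median of 0.0788 in neurons (log2 difference -4.67). Ntng1 ran at 44.7, 42.4, 43.6 and 42.8 CPM in tissue and from 0.0175 to 40.7 CPM with a median of 5.33 in neurons (log2 difference -3.08). Ntn4, a laminin-related netrin, ran at 12.3, 10.8, 13.6 and 9.45 CPM in tissue and from 0 to 0.237 CPM with a median of 0.122 in neurons (log2 difference -3.49). In all 3 every naive mouse lay below every whole DRG. Ntn1 ran at 23.9, 11, 11.8 and 7.68 CPM in tissue and from 0 to 18.7 CPM with a median of 0.037 in neurons (log2 difference -2.98). Ntn5 ran at 1.78, 0.989, 1.13 and 1.09 CPM in tissue and from 0 to 0.356 CPM with a median of 0 in neurons (log2 difference -1.08). Ntn1 was near 0 outside replicate 5, and Ntn5 was below 20 reads in every sorted mouse.

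Of 19 semaphorins tested 14 were called lower in neurons and none higher (10 lower with TMM scaling). The secreted class 3 genes called were Sema3b, Sema3c, Sema3e, Sema3f and Sema3g. Sema3b ran at 199.9, 164, 167 and 163 CPM in tissue and from 6.13 to 106 CPM with a median of 56.4 in neurons (log2 difference -2.35). Sema3c ran at 29.1, 29, 28.3 and 27.4 CPM in tissue and from 0 to 15.9 CPM with a median of 2.93 in neurons (log2 difference -3.24). Sema3e, the ligand of plexin D1, ran at 26.1, 28.1, 26.6 and 27.3 CPM in tissue and from 0.021 to 23.8 CPM with a median of 3.15 in neurons (log2 difference -2.69). In all 3 the naive range lay below the tissue range. Sema3f, which acts through Nrp2, ran at 46, 39.8, 38.9 and 37.7 CPM in tissue and from 0 to 7.38 CPM with a median of 3.94 in neurons (log2 difference -3.43). Sema3g ran at 62.3, 56.2, 57.4 and 53.5 CPM in tissue and from 0.035 to 24.3 CPM with a median of 1.75 in neurons (log2 difference -3.72). The same held for both of these.

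The other 9 called semaphorins are bound to the membrane. Sema7a, the ligand of Plxnc1, had 141, 112, 120.1 and 117 CPM in the uninjured DRGs and from 0 to 7.38 CPM with a median of 1.5 in the naive neurons (log2 difference -5.53, adjusted p = 0.0192). Sema4a ran at 10.1, 9.6, 12.1 and 9.76 CPM in tissue and from 0 to 4.82 CPM with a median of 0.193 in neurons (log2 difference -2.64). Sema4b ran at 53.7, 48, 47.6 and 47.6 CPM in tissue and from 0.797 to 22.3 CPM with a median of 13.2 in neurons (log2 difference -2.39). These 3 did not overlap between groups. Sema4c ran at 33.8, 30.4, 29.4 and 29.8 CPM in tissue and from 0 to 3.68 CPM with a median of 1.8 in neurons (log2 difference -3.79). Sema4f ran at 94.8, 88.7, 87.5 and 95.1 CPM in tissue and from 8.3 to 44.4 CPM with a median of 24.7 in neurons (log2 difference -1.98). Sema5b, a semaphorin with thrombospondin repeats, ran at 6.24, 5.96, 5.54 and 6.04 CPM in tissue and from 0 to 1.51 CPM with a median of 0.188 in neurons (log2 difference -2.41). None of these 3 overlapped between groups either. Sema6b ran at 14.6, 9.98, 10.4 and 9.01 CPM in tissue and from 0 to 1.91 CPM with a median of 0.284 in neurons (log2 difference -3.03). Sema6c ran at 50.7, 31.9, 37.1 and 38.5 CPM in tissue and from 0 to 4.06 CPM with a median of 0.787 in neurons (log2 difference -4.37). Sema6d ran at 104, 89.7, 89.5 and 92.2 CPM in tissue and from 28.9 to 85 CPM with a median of 51.4 in neurons (log2 difference -0.84). The Sema6d difference was close to the median of all genes. Sema4d, a ligand of plexin B1, had 26.9, 24.8, 26.2 and 23.9 CPM in the uninjured DRGs and from 2.64 to 171 CPM with a median of 16.6 in the naive neurons, Sema4g from 0.0175 to 80.4 CPM with a median of 4.94 in neurons and Sema6a from 0.035 to 48.6 CPM with a median of 11, with adjusted p from the exact permutation test of 0.766, 0.795 and 0.843.

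Of the semaphorin receptors, 6 of 9 plexins and both neuropilins were called lower in neurons, counts that TMM scaling moved to 4 and 0. Plxnc1, the plexin gene with the highest RPKM in the tissue, had 335, 342, 318 and 359 CPM in the uninjured DRGs and from 3.52 to 29.3 CPM with a median of 18.3 in the naive neurons (log2 difference -4.48, adjusted p = 0.0192). Plxnd1 ran at 121, 103, 104 and 97 CPM in tissue and from 0.798 to 117 CPM with a median of 2.84 in neurons (log2 difference -4.27). Plxnb1 ran at 34.3, 25.8, 26.9 and 26.4 CPM in tissue and from 0.139 to 2.97 CPM with a median of 0.515 in neurons (log2 difference -4.04). Plxnd1 was high in naive replicate 5 and low in the others. Plxnb2 ran at 44, 38.1, 37.7 and 34 CPM in tissue and from 0.147 to 10.5 CPM with a median of 3.87 in neurons (log2 difference -3.35). Plxna1 ran at 62.3, 47.9, 54.4 and 47.6 CPM in tissue and from 0.0175 to 28.9 CPM with a median of 14.2 in neurons (log2 difference -2.62). Plxna4, a receptor for class 3 and class 6 semaphorins, ran at 160.1, 142, 146 and 139.6 CPM in tissue and from 0.252 to 106 CPM with a median of 35.5 in neurons (log2 difference -2.68). In all 3 the naive range lay below the tissue range. Plxna2 had 186, 160.2, 168 and 146 CPM in the uninjured DRGs and from 4.38 to 168 CPM with a median of 114 in the naive neurons and was not called in the exact permutation test (adjusted p = 0.254). Nrp1 ran at 79.7, 66, 62.5 and 60.9 CPM in tissue and from 14.4 to 41.4 CPM with a median of 26.6 in neurons (log2 difference -1.41). Nrp2 ran at 95, 76.3, 75.8 and 71.3 CPM in tissue and from 1.45 to 85.9 CPM with a median of 17.4 in neurons (log2 difference -2.23). For Nrp2 a single naive mouse lay within the tissue range.

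Of 13 Eph receptors tested 10 were called lower in neurons and none higher (7 lower with TMM scaling). Epha2, Epha8 and Ephb4 are counted among the 10 but reached the count filter only through whole DRG, which set their direction. Epha2 ran at 3.37, 3.69, 3.72 and 3.25 CPM in tissue and from 0 to 0.173 CPM with a median of 0.0792 in neurons (log2 difference -2.06). Epha3 ran at 3.14, 2.85, 3.38 and 2.13 CPM in tissue and from 0 to 1.69 CPM with a median of 0.0208 in neurons (log2 difference -1.59). Epha4 ran at 8.88, 8.5, 8.3 and 7.81 CPM in tissue and from 0.0347 to 24.6 CPM with a median of 0.621 in neurons (log2 difference -1.97). Epha4 overlapped through naive replicate 6. Epha6 ran at 34.2, 33.2, 34.1 and 33.8 CPM in tissue and from 0.21 to 12.4 CPM with a median of 4.18 in neurons (log2 difference -2.88). Epha8 ran at 2.28, 1.86, 2.32 and 1.69 CPM in tissue and had no read in any naive mouse. Epha10, which lacks kinase activity, ran at 10.8, 7.8, 9.83 and 8.46 CPM in tissue and from 0 to 4.98 CPM with a median of 1.53 in neurons (log2 difference -1.93). The naive and tissue ranges of Epha6 and Epha10 did not overlap. Ephb2 ran at 9.2, 7.19, 7.09 and 5.8 CPM in tissue and from 0 to 3.5 CPM with a median of 0.0304 in neurons (log2 difference -2.48). Ephb3 ran at 12.5, 12.2, 10.1 and 10.2 CPM in tissue and from 0 to 15.8 CPM with a median of 0.0473 in neurons (log2 difference -2.80). Ephb4 ran at 16.3, 12.2, 12.7 and 11.6 CPM in tissue and from 0 to 0.989 CPM with a median of 0.0297 in neurons (log2 difference -3.61). Ephb3 overlapped through naive replicate 5. Ephb6 ran at 72.7, 64.8, 61.8 and 59.7 CPM in tissue and from 4.85 to 31.9 CPM with a median of 8.06 in neurons (log2 difference -2.64). Epha7 had 7.92, 8.59, 8.65 and 8.51 CPM in the uninjured DRGs and from 0.105 to 12.7 CPM with a median of 3.35 in the naive neurons and an adjusted p of 0.254 in the exact permutation test.

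All 3 Robo genes, 3 of 5 genes under the Unc5 symbol and Dcc were called lower in neurons (3, 1 and 1 with TMM scaling). Robo4 entered the test through whole DRG alone, which set its direction, and Robo3 was left out by its whole DRG count. Robo1 ran at 27.5, 22.6, 24.3 and 22.4 CPM in tissue and from 0 to 11.9 CPM with a median of 6.9 in neurons (log2 difference -2.11). Robo2 ran at 221, 219.9, 201 and 213 CPM in tissue and from 4.99 to 124 CPM with a median of 72.5 in neurons (log2 difference -2.23). Robo4, a Robo of endothelial cells, ran at 4.19, 4.83, 5.19 and 5.05 CPM in tissue and from 0 to 0.0169 CPM with a median of 0 in neurons (log2 difference -2.53). Robo4 had reads in 1 naive mouse, and the endothelial markers summed to a median of 5.91 CPM against 76.1 in whole DRG. Unc5a ran at 12.2, 9.66, 11.2 and 10.2 CPM in tissue and from 0 to 9.21 CPM with a median of 3.99 in neurons (log2 difference -1.69). Unc5c ran at 41, 37.5, 38.4 and 38.7 CPM in tissue and from 0.021 to 19.7 CPM with a median of 15.9 in neurons (log2 difference -2.43). Unc5d ran at 3.32, 3.89, 3.06 and 3.02 CPM in tissue and from 0 to 2.52 CPM with a median of 0.0237 in neurons (log2 difference -1.53). Unc5c had 0.35 and 0.021 CPM in naive replicates 5 and 6 and 15.7 or more in the other 4 mice. Dcc ran at 1.05, 1.01, 1.48 and 1.22 CPM in tissue and from 0 to 0.683 CPM with a median of 0.0455 in neurons (log2 difference -0.91). Unc5b had 23.9, 20.6, 20.4 and 20.2 CPM in the uninjured DRGs and from 0 to 22.8 CPM with a median of 4.53 in the naive neurons and an adjusted p of 0.102 in the exact permutation test, and Unc50 0.19.

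**Figure D3:**
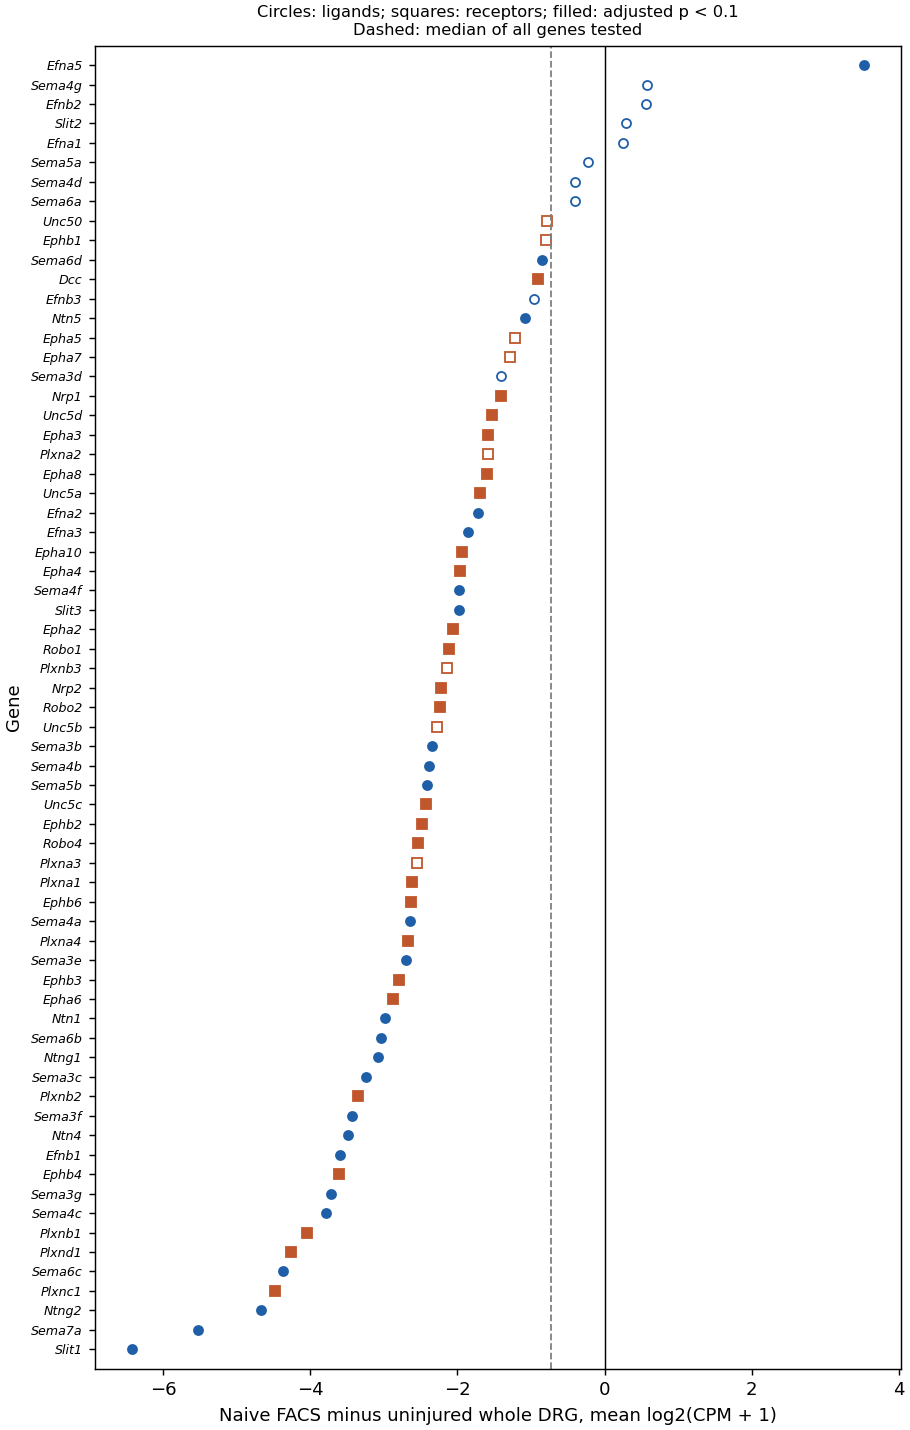
Difference in mean log2(CPM + 1) between 6 naive sorted mice and 4 uninjured whole DRGs (horizontal axis) for 67 members (vertical axis), with circles for ligands, squares for receptors, filled symbols for adjusted p under 0.1 and a dashed line at the median of all genes. Efna5 is the only filled symbol to the right of 0.

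Several members, named after their values were seen, differed in level between the wells with over 2% glial reads and the others. Sema3b had a median of 200.4 CPM in the glial wells against 11.5 CPM in the others, Sema5a a median of 129 CPM in the glial wells against 34.7 CPM in the others and Plxnb3 a median of 76.6 CPM in the glial wells against 1.02 CPM in the others. In the other direction Robo2 had a median of 0.374 CPM in the glial wells against 93.2 CPM in the others, Plxna2 a median of 0.565 CPM in the glial wells against 81 CPM in the others, Efna5 a median of 55.2 CPM in the glial wells against 250.0 CPM in the others and Sema6a a median of 0.4 CPM in the glial wells against 30.6 CPM in the others. Sema3b, Sema5a and Plxnb3 thus lay higher in glial wells, and the guidance receptors Robo2 and Plxna2 in the others. These values are descriptive, since the wells were split by genes measured in them.

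Sema6a, a transmembrane semaphorin gene whose product binds A-class plexins, rose in sorted neurons 3 days after SNI. It had from 0.035 to 48.6 CPM with a median of 11 in the 6 naive mice, 183, 125, 90.5 and 136 CPM 1 day after SNI and 255, 159, 38.4 and 125 CPM at 3 days. All 4 SNI mice of day 1 lay above every naive mouse, and at day 3 replicate 3, whose wells were all glial, overlapped. In edgeR (log2 fold change 3.85, SE 0.91, adjusted p = 0.0969) it was the only member called at 3 days: 1 of 67 tested, or 1.49%, beside 0.442% of 23507 genes (0.357% higher, 0.0851% lower). At 1 day it missed the threshold (log2 fold change 3.64, SE 0.89, adjusted p = 0.105). After SCI it had 3.67, 33.2, 11.3 and 48 CPM at 1 day and 80.7, 11.2, 13.2 and 28.6 CPM at 3 days, with replicate 1 of day 3 above every naive mouse and the others within the naive range (log2 fold change 1.42, SE 0.89, adjusted p = 0.6 and log2 fold change 1.97, SE 0.90, adjusted p = 0.507, the latter fold change 1.19 without naive replicate 5).

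The direct test of SNI against SCI did not call Sema6a at either time (edgeR log2 fold changes 2.22 and 1.88, adjusted p = 0.473 and 0.611). Within the FACS set the SNI mice exceeded naive mice by 2.92 at 1 day and 3.34 at 3 days in mean log2(CPM + 1), and within the FACS2018 set by 6.09 and 5.43. For SCI minus naive these differences were -0.67 and 0.65 within FACS and 3.90 and 3.65 within FACS2018. The edgeR adjusted p at 3 days was 0.143 without naive replicate 1, 0.167 without naive replicate 2, 0.124 without naive replicate 3, 0.248 without SNI 3d replicate 1, 0.119 without SNI 3d replicate 2 and 0.161 without SNI 3d replicate 4, and 0.0389 to 0.412 over all edgeR alternatives, with 0.000103 in DESeq2. The call was also lost in other fits, with 0.369 with no covariates, 0.276 with uncentred RUVr factors and 0.412 with the set as covariate. Against the naive mice of label day 3 alone the edgeR log2 fold change at 3 days was 3.40 (adjusted p = 0.334), and edgeR called 0 members and 0 of all genes at that time in that fit. The naive mice of day 1 had 30.9, 17.4 and 0.035 CPM and those of day 3 4.57, 48.6 and 1.59 CPM. Leaving out SNI 3d replicate 3 raised the members called to 5 (beside 1.68% of all genes). In whole DRG Sema6a had 11, 10.1, 12.1 and 9.03 CPM in uninjured and 12.4, 12.3, 19.8 and 10.9 CPM in SCI mice (adjusted p = 0.354 in edgeR).

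**Figure D4:**
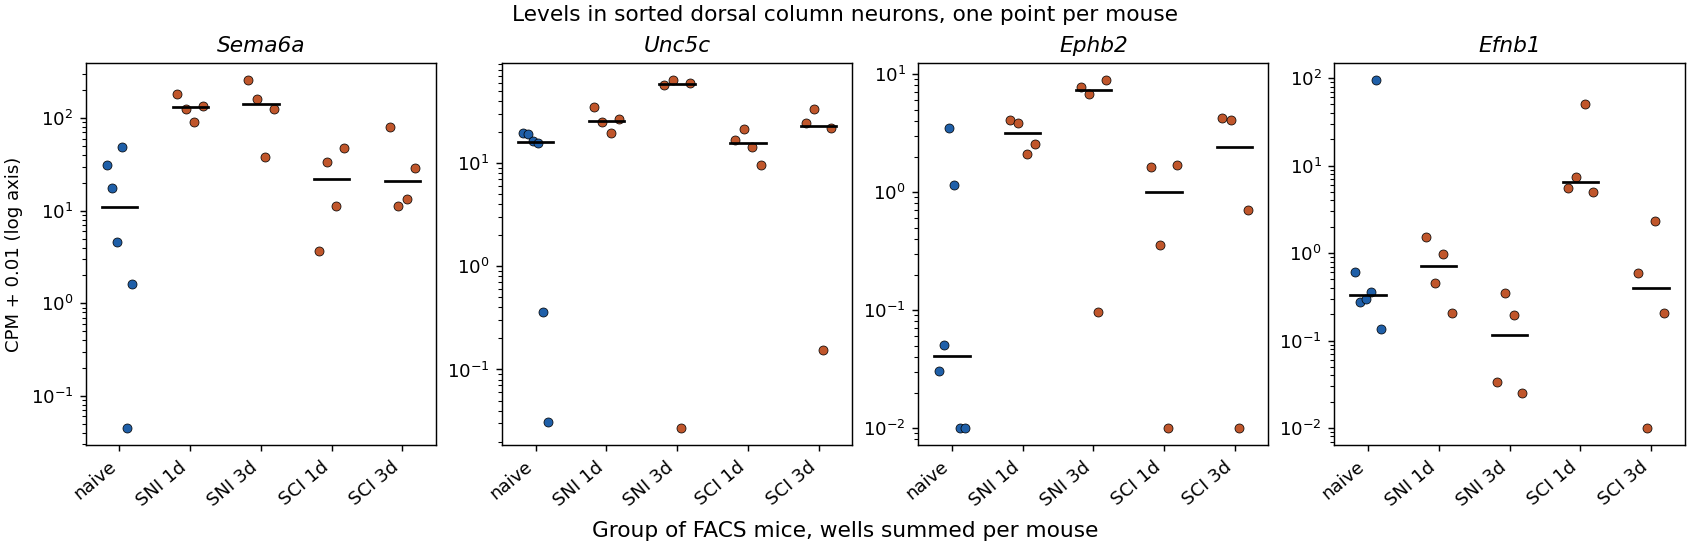
CPM + 0.01 (log axis) of Sema6a, Unc5c, Ephb2 and Efnb1 in sorted neurons, with each mouse a point and the group median a line, in naive and injured groups. Sema6a has its highest group medians after SNI.

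At 1 day after SNI edgeR called 0 of 67 members tested beside 0.519% of 23507 genes. An unadjusted p under 0.05 was found for 11 members (16.4%, beside 14% of all genes), 10 of them with a higher estimate (90.9%, beside 83.4% of the genes at that p). DESeq2 with the same factors called 11 (16.4%, beside 6.16% of all genes). Unc5c, a repulsive netrin receptor, had from 0.021 to 19.7 CPM with a median of 15.9 in naive mice and 35, 24.7, 19.4 and 26.3 CPM after SNI (log2 fold change 2.11, SE 0.65, adjusted p = 0.183 in edgeR). Ephb3 had from 0 to 15.8 CPM with a median of 0.0473 in naive mice and 13.7, 0.56, 9.18 and 1.48 CPM (log2 fold change 5.18, SE 1.69, adjusted p = 0.203). The SNI mice overlapped with naive mice for both genes, for Unc5c only through the lowest SNI mouse. Among lower estimates Epha4 had from 0.0347 to 24.6 CPM with a median of 0.621 and 0.0665, 0.028, 0 and 0 CPM (log2 fold change -5.35, SE 2.31, adjusted p = 0.309). Sema4g had from 0.0175 to 80.4 CPM with a median of 4.94 and 1.29, 0.812, 1.04 and 1.05 CPM (log2 fold change -3.22, SE 1.56, adjusted p = 0.363), and Nrp2 from 1.45 to 85.9 CPM with a median of 17.4 and 2.95, 1.82, 8.07 and 29.9 CPM (log2 fold change -2.37, SE 1.55, adjusted p = 0.531). The 3 overlapped with naive mice. The differences in mean log2(CPM + 1), injured minus naive, within the FACS and FACS2018 sets were 0.71 and 4.33 for Unc5c, 2.06 and 0.29 for Ephb3, -0.64 and -2.37 for Epha4, -1.91 and -2.15 for Sema4g and -2.95 and 1.16 for Nrp2. Single mice left out moved the edgeR log2 fold change by over 1.5 times for Unc5c (1.37 without naive replicate 6), Sema4g (-2.13 without naive replicate 2 and -2.07 without naive replicate 6) and Nrp2 (-1.33 without naive replicate 2 and -1.53 without SNI 1d replicate 2). The edgeR log2 fold changes without the glial wells were 2.17 for Unc5c, 2.71 for Ephb3, -4.41 for Epha4, -0.31 for Sema4g and -0.22 for Nrp2. Of the background, 0.502% of genes were called higher and 0.017% lower. Leaving out naive replicate 4 changed the number of members called to 1 (beside 0.445% of all genes), and leaving out SNI 1d replicate 4, high in nociceptor markers, kept it at 0 (beside 0.141% of all genes). Groups did not overlap for 2 of 67 members (2.99%, beside 1.85% of all genes tested), Sema6a and Sema4f, the latter named after its values were seen.

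At 3 days after SNI, 8 members had an unadjusted p under 0.05 (11.9%, beside 13.2% of all genes), 7 of them with a higher estimate (87.5%, beside 53.3% of the genes at that p), and DESeq2 with the same factors called 4 (5.97%, beside 9.14% of all genes: Sema6a, Ephb2, Epha3 and Ephb4). Ephb2, an Eph receptor of the B class, had from 0 to 3.5 CPM with a median of 0.0304 in naive mice and 7.82, 6.82, 0.0856 and 8.81 CPM after SNI (log2 fold change 4.26, SE 1.36, adjusted p = 0.209 in edgeR). Ephb2 was high in 3 of 4 SNI mice. Sema3a, a repellent of sensory axons, had from 0 to 0.168 CPM with a median of 0 and 0, 0, 0.0171 and 6.4 CPM. It was tested only because SNI 3d replicate 4 held 428 reads, with 8 or fewer in every other sorted mouse, so its direction was set by that mouse and no fold is given. It is nevertheless among the members at an unadjusted p under 0.05 here and in SNI against SCI at 3 days, and among those DESeq2 called 1 day after SCI and in SNI against SCI at 1 day. Slit3 had from 0 to 1.23 CPM with a median of 0.0826 and 0, 0.105, 0 and 0 CPM (log2 fold change -4.39, SE 2.00, adjusted p = 0.353). Efnb1 had from 0.126 to 93.9 CPM with a median of 0.317 and 0.0232, 0.337, 0.188 and 0.015 CPM (log2 fold change -2.33, SE 1.17, adjusted p = 0.396), and Sema4g 1.62, 2.13, 0.839 and 0.299 CPM after SNI (log2 fold change -3.05, SE 1.57, adjusted p = 0.407). All overlapped with naive mice. The differences in mean log2(CPM + 1), injured minus naive, within the FACS and FACS2018 sets were 2.22 and 1.71 for Ephb2, -0.51 and -0.03 for Slit3, -0.23 and -3.23 for Efnb1 and -1.42 and -2.56 for Sema4g. Single mice left out moved the edgeR log2 fold change by over 1.5 times for Slit3 (-7.51 without SNI 3d replicate 2), Efnb1 (-4.09 without SNI 3d replicate 2 and -1.13 without naive replicate 5) and Sema4g (-1.78 without naive replicate 2 and -1.95 without naive replicate 6). The edgeR log2 fold changes without the glial wells were 4.47 for Ephb2, -3.40 for Slit3, -1.27 for Efnb1 and -0.05 for Sema4g.

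At 1 day after SCI edgeR called 0 of 67 members tested beside 0.0468% of 23507 genes. An unadjusted p under 0.05 was found for 9 members (13.4%, beside 11.2% of all genes), 9 of them with a higher estimate (100%, beside 83.8% of the genes at that p). DESeq2 with the same factors called 7 (10.4%, beside 4.61% of all genes). Efnb1 had 5.55, 7.47, 49.9 and 4.99 CPM (log2 fold change 4.04, SE 1.09, adjusted p = 0.265 in edgeR), above all naive mice but replicate 5, at the highest value of 93.9 CPM. Its estimate was -0.46 with no covariates and 0.50 with the set as covariate. Unc5d had from 0 to 2.52 CPM with a median of 0.0237 in naive mice and 11.5, 1.51, 25.5 and 7.43 CPM after SCI (log2 fold change 5.76, SE 1.85, adjusted p = 0.329). Plxnb1, a receptor of Sema4d, had from 0.139 to 2.97 CPM with a median of 0.515 and 31, 1.75, 8.96 and 6.88 CPM (log2 fold change 3.59, SE 1.23, adjusted p = 0.333). Naive mice reached into the injured range in each. Sema6d had from 28.9 to 85 CPM with a median of 51.4 and 33.6, 7.07, 32.2 and 45.1 CPM (log2 fold change -1.10, SE 0.61, adjusted p = 0.531). Sema4d had from 2.64 to 171 CPM with a median of 16.6 and 12.2, 12.4, 6.54 and 25.9 CPM (log2 fold change -1.52, SE 0.98, adjusted p = 0.612), and Slit2 75.3, 36, 7.15 and 14.2 CPM (log2 fold change -1.27, SE 0.86, adjusted p = 0.639). The groups overlapped for all 6. The differences in mean log2(CPM + 1), injured minus naive, within the FACS and FACS2018 sets were 2.44 and 0.76 for Efnb1, 1.63 and 3.90 for Unc5d, 2.40 and 2.34 for Plxnb1, -1.56 and -0.63 for Sema6d, -0.05 and -1.59 for Sema4d and -0.11 and -2.14 for Slit2. Single mice left out moved the edgeR log2 fold change by over 1.5 times for Sema4d (-0.50 without naive replicate 5) and Slit2 (-2.01 without SCI 1d replicate 1 and -0.75 without naive replicate 6). The edgeR log2 fold changes without the glial wells were 3.17 for Efnb1, 4.96 for Unc5d, 4.09 for Plxnb1, -0.65 for Sema6d, -0.46 for Sema4d and 0.03 for Slit2. Without SCI 1d replicate 4, high in nociceptor markers, the number of members called was 0 (beside 0.0215% of all genes).

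At 3 days after SCI edgeR called 0 of 67 members tested beside 0.051% of 23507 genes. An unadjusted p under 0.05 was found for 5 members (7.46%, beside 9.56% of all genes), 4 of them with a higher estimate (80%, beside 60.9% of the genes at that p). DESeq2 with the same factors called 2 (2.99%, beside 4.73% of all genes: Sema5b and Sema4d). Sema5b had from 0 to 1.51 CPM with a median of 0.188 in naive mice and 5.01, 4.69, 0.636 and 1.07 CPM after SCI (log2 fold change 4.71, SE 1.94, adjusted p = 0.491 in edgeR). Plxnc1 had from 3.52 to 29.3 CPM with a median of 18.3 and 45, 21.6, 29.5 and 51.9 CPM (log2 fold change 1.58, SE 0.68, adjusted p = 0.494). Of the injured mice, 2 of 4 lay above every naive mouse for Sema5b and 3 of 4 for Plxnc1. Sema4d had 11, 16.7, 0.127 and 12.8 CPM (log2 fold change -2.40, SE 1.08, adjusted p = 0.507), Sema3e from 0.021 to 23.8 CPM with a median of 3.15 in naive mice and 1.17, 9.77, 0 and 1.42 CPM (log2 fold change -2.52, SE 1.85, adjusted p = 0.676), an estimate that was 0.42 against the naive mice of day 3 alone. Plxna2 had from 4.38 to 168 CPM with a median of 114 and 110.2, 119.6, 0.0954 and 57.1 CPM (log2 fold change -0.83, SE 0.64, adjusted p = 0.699), an estimate that was 0.22 without SCI 3d replicate 3, the mouse high in fibroblast markers. Without that mouse the number of members called was 0 (beside 0.0% of all genes). The differences in mean log2(CPM + 1), injured minus naive, within the FACS and FACS2018 sets were 1.98 and 0.88 for Sema5b, 0.77 and 2.03 for Plxnc1, 0.09 and -3.45 for Sema4d, -0.36 and -0.42 for Sema3e and -0.20 and -0.23 for Plxna2. Single mice left out moved the edgeR log2 fold change by over 1.5 times for Plxnc1 (1.05 without SCI 3d replicate 3), Sema4d (-1.45 without naive replicate 5 and -1.10 without SCI 3d replicate 3), Sema3e (-0.81 without naive replicate 1 and -0.75 without SCI 3d replicate 3) and Plxna2 (-1.28 without SCI 3d replicate 1, -1.28 without SCI 3d replicate 2 and -1.29 without naive replicate 5). The edgeR log2 fold changes without the glial wells were 4.47 for Sema5b, 1.03 for Plxnc1, -0.55 for Sema4d, -0.13 for Sema3e and -0.09 for Plxna2.

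SNI and SCI were also set against each other. At 1 day edgeR called 0 of 67 members tested beside 0.0% of 23507 genes. An unadjusted p under 0.05 was found for 8 members (11.9%, beside 10.1% of all genes), 4 of them with a higher estimate (50%, beside 57.8% of the genes at that p). DESeq2 with the same factors called 7 (10.4%, beside 4.67% of all genes). Ephb3 had 13.7, 0.56, 9.18 and 1.48 CPM after SNI and 0, 0, 0.0852 and 0.0157 CPM after SCI (log2 fold change 7.97, SE 2.28, adjusted p = 0.421 in edgeR), and Efnb1 1.53, 0.448, 0.965 and 0.197 and 5.55, 7.47, 49.9 and 4.99 CPM (log2 fold change -4.01, SE 1.28, adjusted p = 0.439). For both genes the 4 mice of a group lay apart from the other 4, in opposite directions. Slit1 had 1.22, 0.14, 0.814 and 2.88 and 0.154, 0.45, 0.0852 and 0.141 CPM (log2 fold change 2.78, SE 1.09, adjusted p = 0.454). Epha4 had 0, 5.22, 1.09 and 0 CPM after SCI (log2 fold change -5.72, SE 2.37, adjusted p = 0.467) and Ntng1 8.63, 0.476, 2.14 and 3.87 and 26.2, 58.2, 46.3 and 0.345 CPM (log2 fold change -3.33, SE 1.38, adjusted p = 0.467), all with overlap. Within the FACS and FACS2018 sets, SNI minus SCI in mean log2(CPM + 1) was 2.26 and 2.26 for Ephb3, -1.96 and -3.51 for Efnb1, 0.30 and 1.25 for Slit1, -1.25 and -0.53 for Epha4, -3.41 and -1.03 for Ntng1 and 3.59 and 2.19 for Sema6a. Single mice left out moved the edgeR log2 fold change by over 1.5 times for Epha4 (-3.81 without SCI 1d replicate 2). The edgeR log2 fold changes without the glial wells were 7.07 for Ephb3, -1.80 for Efnb1, 3.04 for Slit1, -6.06 for Epha4, -2.67 for Ntng1 and 2.37 for Sema6a. EdgeR called 0 members without those wells beside 0.796% of all genes, with 7 at an unadjusted p under 0.05 (10.6%, beside 13.5% of all genes). Groups did not overlap for 6 of 67 members with all wells (8.96%, beside 4.43% of all genes tested) while 0.0% of genes were called: Ephb2, Ephb3, Plxnb2 and Sema6a were higher after SNI and Efnb1 and Robo2 lower.

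At 3 days edgeR called 0 of 67 members tested beside 0.0% of 23507 genes. An unadjusted p under 0.05 was found for 5 members (7.46%, beside 8.15% of all genes), 2 of them with a higher estimate (40%, beside 49.1% of the genes at that p). DESeq2 with the same factors called 1 (1.49%, beside 3.63% of all genes: Sema4g). Sema4f had 153, 96.2, 28.9 and 115 CPM after SNI and 59.8, 27, 0.0954 and 27.8 CPM after SCI (log2 fold change 2.21, SE 0.81, adjusted p = 0.608 in edgeR). Sema3a had 0, 0, 0.0159 and 0 CPM after SCI, a single read, and rested on the same SNI 3d mouse, so that no fold is given. Efna1 had 68.3, 40.4, 0.0856 and 34.3 and 66.4, 51.5, 36.5 and 67.2 CPM (log2 fold change -2.01, SE 0.83, adjusted p = 0.608), Sema4g 0.49, 2.62, 0.254 and 46.7 CPM after SCI (log2 fold change -3.85, SE 1.63, adjusted p = 0.608) and Slit3 0.0837, 1.77, 0 and 0.85 CPM (log2 fold change -5.00, SE 2.12, adjusted p = 0.608). All overlapped between the groups, and Sema4g was 0.37 without SCI 3d replicate 4. Within the FACS and FACS2018 sets, SNI minus SCI in mean log2(CPM + 1) was 1.57 and 3.39 for Sema4f, -0.15 and -3.03 for Efna1, 0.30 and -2.32 for Sema4g, -0.72 and -0.44 for Slit3 and 2.68 and 1.78 for Sema6a. Single mice left out moved the edgeR log2 fold change by over 1.5 times for Sema4f (1.38 without SCI 3d replicate 3), Efna1 (-0.47 without SNI 3d replicate 3) and Slit3 (-8.11 without SNI 3d replicate 2). The edgeR log2 fold changes without the glial wells were 1.61 for Sema4f, -0.49 for Efna1, 0.88 for Sema4g, -5.24 for Slit3 and 2.06 for Sema6a. The comparisons of the 4 injured groups with naive mice share the 6 naive mice.

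Leaving out the glial wells, with 20 mice remaining, raised the counts after SNI. At 1 day edgeR then called 8 members (12.1%) beside 6.47% of all genes, and at 3 days 8 members (12.1%) beside 4.99%, which is 1463 and 1128 genes. Their adjusted p ran from 0.0102 to 0.0967 at 1 day and from 0.00479 to 0.0975 at 3 days. Those named here were picked after their values were seen. Netrin, semaphorin and ephrin receptors were among them, with log2 fold changes at 1 day for Unc5c (2.17) and Plxna1 (2.39), and at 3 days for Unc5c (2.98), Plxnc1 (1.75), Plxna1 (2.43) and Ephb2 (4.47). Ligands at 1 day were Sema6a (3.48), Sema4f (1.31), Efna1 (1.47), Slit1 (3.77) and Sema3b (-1.73). Efna4 was called there too, on the reads of 1 mouse: without those wells it had 0.0265, 0, 0.0178 and 5.01 CPM after SNI and 0 in all 6 naive mice, and no fold is given. Sema3b had a log2 fold change of 0.27 with all wells. In the wells kept, naive replicates 5 and 6 were near 0 for Unc5c (0.744 and 0.0646 CPM) and Plxna1 (0 and 0.129 CPM). The other 4 naive mice had 15.7 to 22.1 CPM of Unc5c against 26.3 to 41.7 at 1 day after SNI, and 6.71 to 28.9 CPM of Plxna1 against 20.4 to 35. Efna1 had 10.4 to 279 CPM in naive mice and 24.6 to 208 after SNI, and Slit1 0 to 0.715 and 0.168 to 2.88. The groups overlapped for Plxna1, Sema4f, Efna1, Slit1, Efna4 and Sema3b at 1 day and for Plxna1 and Slit1 at 3 days. At 3 days the ligands were Sema4f (1.80), Sema6a (3.62), Sema3c (4.19) and Slit1 (3.87). Sema6a was thus called at both times. With all wells the log2 fold changes at 3 days were 1.28 for Unc5c, 1.04 for Plxnc1 and 1.03 for Plxna1. Those of Sema3c and Slit1 were 2.38 and 2.11, and none of these was called with all wells. In the wells kept, Sema3c had 0.0463, 0 and 0 CPM in naive replicates 1, 5 and 6. The other naive mice had 3.01 to 6.32 CPM of Sema3c against 18.35 to 25.9 at 3 days after SNI. After SCI edgeR called 0 members at 1 day and 0 at 3 days without those wells, beside 0.0354% and 0.0% of all genes. At an unadjusted p under 0.05 there were 7 members at 1 day (10.6%, beside 16% of all genes) and 10 at 3 days (15.2%, beside 12.3% of all genes).

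Other genes of the pathways formed a list of 62 further cues, co-receptors and effectors. In whole DRG edgeR called 1 of 62 higher and none lower, 1.61% beside 2.32% of all genes, and DESeq2 called 4 (6.45%, beside 5.27%), adding Flrt3, Chl1 and Vav3. The gene called by edgeR was Mical1, an enzyme that oxidises actin downstream of plexins, with 82.9, 85, 78.8 and 82.8 CPM in uninjured and 108, 108, 104 and 102 CPM in SCI mice, groups that do not overlap (log2 fold change 0.34, SE 0.06, adjusted p = 0.0285). Its edgeR adjusted p was 0.121 without uninjured replicate 3, and 0.0018 to 0.121 over all edgeR alternatives, with 8.1e-06 in DESeq2. Flrt3, a membrane protein that binds Unc5 receptors, had 16.7, 18.3, 20.2 and 19.3 CPM in uninjured and 32.4, 22.3, 21.6 and 33.5 CPM in injured whole DRG, again without overlap (log2 fold change 0.54, SE 0.15, adjusted p = 0.14 in edgeR, adjusted p = 0.0335 in DESeq2). In sorted neurons it rose at 1 day and at 3 days after SNI and was the only called gene of 62 at each time, 1.61% beside 0.519% and 0.442% of all genes. It had from 16 to 223 CPM with a median of 30.6 in naive mice, 1257, 814, 1133 and 777 CPM at 1 day (log2 fold change 3.69, SE 0.67, adjusted p = 0.0279) and 1199, 608, 63.8 and 824 CPM at 3 days (log2 fold change 2.86, SE 0.65, adjusted p = 0.0914). The naive mice of day 1 had 16, 21.4 and 26.5 CPM and those of day 3 122, 223 and 34.7 CPM, all of the latter higher. All 4 SNI mice of day 1 exceeded every naive mouse, and at day 3 replicate 3 did not. Against the naive mice of the same day the edgeR log2 fold change was 5.31 (adjusted p = 0.0146) at 1 day and 2.29 (adjusted p = 0.296) at 3 days. The edgeR adjusted p at 1 day was 0.111 without SNI 1d replicate 3 (0.0112 to 0.296 over all edgeR alternatives, with 1.2e-05 in DESeq2), and at 3 days 0.126 without naive replicate 1, 0.15 without naive replicate 2, 0.118 without naive replicate 3, 0.251 without SNI 3d replicate 1, 0.111 without SNI 3d replicate 2 and 0.188 without SNI 3d replicate 4 (0.0248 to 0.328 over all edgeR alternatives, with 0.00163 in DESeq2). Both calls were also lost in the same other fits. The edgeR adjusted p at 1 day was 0.296 with no covariates, 0.196 with uncentred RUVr factors and 0.232 with the set as covariate. At 3 days it was 0.328 with no covariates, 0.207 with uncentred RUVr factors and 0.32 with the set as covariate. With RUVr factors and a block by label number it was 0.169 at 1 day and 0.182 at 3 days. Within the FACS and FACS2018 sets the differences in mean log2(CPM + 1) were 4.15 and 4.91 at 1 day and 3.91 and 2.88 at 3 days. Without the glial wells its edgeR log2 fold changes were 4.74 (adjusted p = 0.0112) and 4.14 (adjusted p = 0.0248). In that fit edgeR called 10 of 62 list genes at 1 day (16.1%, beside 6.47% of all genes), all higher but Ablim1, and 5 at 3 days (8.06%, beside 4.99%), which were Flrt3, Limk2, Mical2, Rgmb and Crmp1, all higher. For SNI against SCI at 1 day it called Rgmb and Rac1 (3.23%, beside 0.796%). All but Flrt3 are named after their values were seen. With all wells the edgeR log2 fold changes 3 days after SNI were -0.14 for Rgmb, 0.03 for Limk2 and 0.51 for Crmp1. The sign of Rgmb thus turned between the fits. With all wells DESeq2 called 3 (4.84%, beside 6.16% of all genes: Flrt3, Nck2 and Ngef) at 1 day and 8 (12.9%, beside 9.14% of all genes) at 3 days after SNI, and 1 (1.61%, beside 4.67% of all genes: Flrt3) and 3 (4.84%, beside 3.63% of all genes: Flrt1, Mical2 and Ablim1) for SNI against SCI. After SCI Flrt3 had 127, 119.8, 47.9 and 283 CPM at 1 day and 607, 54.7, 41.1 and 265 CPM at 3 days. For SCI minus naive its differences in mean log2(CPM + 1) within the FACS and FACS2018 sets were 1.12 and 1.91 at 1 day. At 3 days they were 1.69 and 1.75. After SCI edgeR called no gene of the list. At an unadjusted p under 0.05 there were 4 at 1 day (6.45%, beside 11.2% of all genes) and 5 at 3 days (8.06%, beside 9.56% of all genes), and DESeq2 called 1 (1.61%, beside 4.61% of all genes: Mical2) and 3 (4.84%, beside 4.73% of all genes: Rnd1, Limk2 and Dpysl5). Naive neurons differed from whole DRG in 36 of 62 genes, 4 higher and 32 lower, or 58.1% beside 50.4% of all genes, and the median log2 difference was -1.40 beside -0.73.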

How the data were processed

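The deposited counts per gene of 74 libraries are whole reads, not normalized, which the authors obtained with HTSeq 0.6.1 from STAR 2.5.3a alignments (mm10) after Cutadapt and PRINSEQ trimming. The authors' own comparison tables hold log2 fold changes, p-values and 123 columns of normalized values per sample, none of which was used. Genes were named, and exon lengths taken, from GENCODE vM21 (53274 identifiers matched). The authors removed outlier mice and kept fewer than are labelled in all sorted groups but SCI 1d; which ones is not matched here, since the codes in their tables are in no mouse's label, and all mice were used. The 3 wells of a mouse were summed. Whole DRG and the 22 sorted mice were fitted separately in edgeR 4.0.16 (R 4.3.3, TMM, quasi-likelihood test), with genes of a mean count of 10 or more in whole DRG and of 20 or more reads in at least 1 sorted mouse, where 2 RUVr factors from per-gene centred residuals were added. DESeq2 1.42.0, other filters, scalings, covariates and thresholds and each mouse left out were alternatives. Naive neurons and whole DRG were compared on log2(CPM + 1) with Python 3.11.15 and R. Scripts were tested on simulated data. Genes described singly are those called, the 3 with the smallest p in each direction of each comparison, and the 2 of each family with the highest mean RPKM in uninjured whole DRG. Genes named only because a count held 5 or fewer were named after their values were seen. Members and lists were chosen with earlier results of these data known.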

Additional observations from a re-analysis of the deposited data

Results flagged for a closer look

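For each gene described singly, the groups of the comparisons that name it, and uninjured whole DRG for the highest of a family, were searched for a mouse whose gap to the nearest other exceeded the 95% critical value of Dixon's test. This choice of groups was made after all 7 groups of each gene had been searched, where 86 such mice were found in 422 groups. Of the 157 groups kept 30 held such a mouse. Chance gives about 1 group in 20 where values follow a normal distribution, but CPM with most mice near 0 do not: in SCI 3d every mouse but 1 had no Sema3a read. That rate therefore need not hold for these groups. Among the naive neurons a single high mouse was found for Efna3 at 2.71 CPM in replicate 3 with the next mouse at 0.712, Efna5 at 623 CPM in replicate 1 with the next mouse at 240.5, Efnb1 at 93.9 CPM in replicate 5 with the next mouse at 0.598. High too were Epha3 at 1.69 CPM in replicate 3 with the next mouse at 0.536, Epha4 at 24.6 CPM in replicate 6 with the next mouse at 1.66, Ephb2 at 3.5 CPM in replicate 3 with the next mouse at 1.13. High too were Ephb3 at 15.8 CPM in replicate 5 with the next mouse at 0.555, Ephb4 at 0.989 CPM in replicate 4 with the next mouse at 0.103, Ephb6 at 31.9 CPM in replicate 6 with the next mouse at 11.4. High too were Ntn1 at 18.7 CPM in replicate 5 with the next mouse at 0.144, Ntn5 at 0.356 CPM in replicate 6 with the next mouse at 0.0134, Ntng1 at 40.7 CPM in replicate 1 with the next mouse at 10.4. High too were Plxnd1 at 117 CPM in replicate 5 with the next mouse at 3.74, Robo4 at 0.0169 CPM in replicate 3 with the next mouse at 0, Sema3a at 0.168 CPM in replicate 6 with the next mouse at 0.0174. High too were Sema3e at 23.8 CPM in replicate 1 with the next mouse at 3.83, Sema4d at 171 CPM in replicate 5 with the next mouse at 30.8, Sema5b at 1.51 CPM in replicate 3 with the next mouse at 0.416. High too were Sema7a at 7.38 CPM in replicate 3 with the next mouse at 1.79. Among the injured neurons the single high mice were Efnb1 at 49.9 CPM in SCI 1d replicate 3 with the next at 7.47, Sema3a at 0.0159 CPM in SCI 3d replicate 3 with the next at 0, Sema3a at 6.4 CPM in SNI 3d replicate 4 with the next at 0.0171, Sema3e at 9.77 CPM in SCI 3d replicate 2 with the next at 1.42, Sema4g at 46.7 CPM in SCI 3d replicate 4 with the next at 2.62, Slit3 at 0.105 CPM in SNI 3d replicate 2 with the next at 0. In uninjured whole DRG replicate 1 stood apart each time: it was high for Plxnb1 at 34.3 CPM with the next at 26.9, Sema3b at 199.9 CPM with the next at 167, Sema4b at 53.7 CPM with the next at 48, Unc5b at 23.9 CPM with the next at 20.6, and low for Unc50 at 38.2 CPM with the next at 59.6. That library had the lowest number of gene reads among the 8, 21959030. Unc50 was also low, at 45.3 CPM, in SCI replicate 3, which had 42880850 reads, and was 64.3 CPM in SCI replicate 4 at 22318491 reads. Uninjured replicate 1 and SCI replicate 3 were also the 2 highest in large-fibre markers, and the part of these measures in the values was not tested.

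Over the same choice of groups, Efnb1 lay on opposite sides of the control mean in every mouse of the groups compared. In log2(CPM + 1) relative to the naive mean, all 4 SNI 1d mice lay lower, with a mean of -0.65, and all 4 SCI 1d mice higher, with 2.09. All 4 whole DRGs 1 day after SCI lay below the uninjured mean, with -0.21. The naive mean holds replicate 5, at 93.9 CPM, and 3 of the 4 SNI 1d mice lay above the naive median of 0.317 CPM. The difference between tissue and sorted neurons was not tested, and the direct edgeR test of SNI against SCI gave an adjusted p of 0.439.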

How the results depend on the processing

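For whole DRG after SCI, edgeR called 3 members and 408 genes. DESeq2 called 6 and 929, its size factors in edgeR 3 and 408, no filter 1 and 549, and a threshold of 0.05 1 and 202. Leaving out each mouse gave 0 to 5 members and 104 to 640 genes. Leaving out both mice with high large-fibre markers, chosen after seeing the data, gave 13 and 2041. The replicate block by label number gave 0 members and 127 genes. Same-numbered mice of whole DRG correlated at -0.158, 0.0529, -0.031 and 0.257 in their deviations. Differently numbered mice were not compared there, so these values cannot decide whether the numbers pair the mice. Sorted mice of the same set and number correlated at a median of 0.0989 (lowest pair -0.0253), and those of another set or number at -0.0392. The blocked values are therefore given too. Under the block edgeR adjusted p were 0.151 for Epha4, 0.207 for Epha7, 0.26 for Sema3c and 0.117 for Mical1, and with RUVr factors in sorted neurons after SNI 0.182 for Sema6a at 3 days and 0.169 and 0.182 for Flrt3 at 1 and 3 days. In the order SNI at 1 and 3 days and SCI at 1 and 3 days, each against naive, then SNI against SCI at both times, the sorted neurons gave 0, 1, 0, 0, 0 and 0 members and 122, 104, 11, 12, 0 and 0 genes. DESeq2 with the same factors gave 11, 4, 7, 2, 7 and 1 members and 1447, 2148, 1084, 1111, 1097 and 853 genes. Uncentred factors gave 0, 0, 0, 0, 0 and 0 members and 1, 2, 1, 0, 1 and 0 genes. No covariates gave 0, 0, 0, 0, 0 and 0 members and 0, 0, 1, 0, 0 and 0 genes. The set as covariate gave 0, 0, 0, 0, 0 and 0 members and 0, 0, 1, 0, 0 and 0 genes. A mean count of at least 10 gave 2, 1, 0, 0, 0 and 0 members and 259, 143, 14, 12, 0 and 0 genes. A threshold of 0.05 gave 0, 0, 0, 0, 0 and 0 members and 28, 27, 5, 12, 0 and 0 genes. The replicate block with factors gave 0, 0, 0, 0, 0 and 0 members and 6, 42, 1, 0, 1 and 0 genes. Leaving out the glial wells gave 8, 8, 0, 0, 0 and 0 members and 1463, 1128, 8, 0, 180 and 0 genes. Setting each injured group against the naive mice of its own label day, chosen after seeing the data, gave 0, 0, 0, 0, 0 and 0 members and 12, 0, 3, 0, 0 and 0 genes. Leaving out each mouse gave ranges of 0 to 1, 0 to 5, 0 to 0, 0 to 0, 0 to 0 and 0 to 0 members and 15 to 151, 9 to 710, 1 to 30, 0 to 39, 0 to 1 and 0 to 2 genes. Estimates changed sign for Efnb1 in SCI 1d vs naive (-0.46 with no covariates), Slit2 in SCI 1d vs naive (0.0256 without the glial wells), Plxna2 in SCI 3d vs naive (0.22 without FACS SCI 3d replicate 3), Sema3e in SCI 3d vs naive (0.42 with naive mice split by label day), Sema4g in SNI 3d vs SCI 3d (0.88 without the glial wells) and Sema4g in SNI 3d vs SCI 3d (0.37 without FACS SCI 3d replicate 4). The ranges over mice left out were -1.29 to 0.22 for Plxna2 and -4.27 to 0.37 for Sema4g. Of the genes named after their values were seen, Sema3b in SNI 1d vs naive also changed sign (0.27 with all wells, -1.73 without the glial wells). So did Rgmb in SNI 3d vs naive (-0.14 with all wells, 0.87 without the glial wells). For naive neurons against whole DRG, 50 members and 9173 genes were called, with 47 and 8948 at a pseudocount of 0.1, 51 and 9810 without the glial wells, 48 and 13752 without a filter, 34 and 7207 with TMM scaling, 38 and 7350 at 0.05, and 34 to 52 and 6596 to 10274 with each mouse left out; the counts of genes were added after seeing the data. The cause of these differences was not tested. Between mice the coefficient of variation was 0.133 in whole DRG and 1.19 in sorted neurons, which limits what the latter can show.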
